A study of Mus musculus with 6 samples.

Results

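Intermediate filaments are rope-like polymers that give cells mechanical strength, and each cell type builds them from its own set of subunits. In neurons the light, medium and heavy neurofilament subunits (Nefl, Nefm, Nefh) form the filaments that fill large axons, together with alpha-internexin (Ina), which is made early in neuronal differentiation, and peripherin (Prph), a subunit typical of peripheral neurons. Vimentin (Vim) and nestin (Nes) are the subunits of dividing neural progenitors, and both are also made by neural crest and glial precursors, while vimentin is abundant in mesenchyme and endothelium. The regions described here are those around these 7 genes, chosen by name from the 21887 protein-coding genes that RefSeq annotates in mouse build GRCm38 on chromosomes 1 to 19, X and Y.

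Open chromatin was mapped by ATAC-seq, which finds DNA that a transposase can reach, and histone H3 acetylated at lysine 27 (H3K27ac, found at active promoters and enhancers) by ChIP-seq with the antibody ab4729. The cells of the ATAC, H3K27ac and input DNA samples, 2 replicates of each, were TrkC neurons of the dorsal root ganglia (DRG) of E11.5 embryos, from Runx3-BAC-GFP-CB6 transgenic mice, and 50000 fixed, GFP-sorted cells went into a preparation. The GFP comes from a bacterial artificial chromosome with Runx3, so the population is defined by that reporter in every sample, and no group without it was compared. The data used are 1 consensus list of peak positions for each assay, without signal, score or values per replicate. Depth is therefore unknown, no difference can be set against the spread between replicates, and the presence of a peak is not a measure of transcription.

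A locus was taken as the gene, 1 kb on either side, and the flanks up to the neighbouring protein-coding genes, at most 100 kb on each side. Nefl and Nefm are neighbours and formed 1 locus, so the 7 genes gave 6 loci. These held 27 of 43652 ATAC peaks and 25 of 19924 H3K27ac peaks. Among markers of the labelled cell type, 9 of 10 sensory neuron genes had an ATAC peak within 1 kb of an annotated end, against 60.4% of all protein-coding genes. An H3K27ac peak lay there at 8 of 10, against 49.3%. Both were found at Elavl3, Elavl4, Isl1 and Neurod1, among others. Runx3, the gene of the reporter, had ATAC alone at an end, and 12 ATAC and 3 H3K27ac peaks inside the gene. Because the reporter construct carries Runx3, these peaks cannot be told apart between the construct and the gene itself. Ntrk3, which encodes TrkC itself, had neither at an end, and 7 ATAC and 4 H3K27ac peaks inside.

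The sequences of 4 promoters are shown, those of the filament genes with a start in the RefSeq promoter table. Nefl, Nefm and Nefh had none there, so their promoters could not be shown. An ATAC peak lies over the promoters of Ina, Vim and Nes, and none over that of Prph. Each sequence runs from 250 bases before to 50 bases after the annotated start of transcription and comes from RefSeq, build GRCm38.p6. All 4 are on the plus strand, and capitals mark the TATA box TATAAA, the CCAAT box (ATTGG on the other strand), the GC box GGGCGG (here found only as CCGCCC, its other strand) and the E-box CAGCTG.
Ina: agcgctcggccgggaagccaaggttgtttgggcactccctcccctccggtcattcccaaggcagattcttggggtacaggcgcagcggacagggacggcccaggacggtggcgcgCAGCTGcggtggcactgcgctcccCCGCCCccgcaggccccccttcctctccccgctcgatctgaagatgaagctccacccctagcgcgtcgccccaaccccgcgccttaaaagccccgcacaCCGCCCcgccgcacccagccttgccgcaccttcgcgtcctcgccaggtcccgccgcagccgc
Vim: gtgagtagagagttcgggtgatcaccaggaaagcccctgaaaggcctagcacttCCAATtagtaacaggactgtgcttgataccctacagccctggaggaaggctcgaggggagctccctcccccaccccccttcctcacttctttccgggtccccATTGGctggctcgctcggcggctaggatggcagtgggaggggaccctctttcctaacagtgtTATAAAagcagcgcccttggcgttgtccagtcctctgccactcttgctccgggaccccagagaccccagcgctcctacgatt
Nes: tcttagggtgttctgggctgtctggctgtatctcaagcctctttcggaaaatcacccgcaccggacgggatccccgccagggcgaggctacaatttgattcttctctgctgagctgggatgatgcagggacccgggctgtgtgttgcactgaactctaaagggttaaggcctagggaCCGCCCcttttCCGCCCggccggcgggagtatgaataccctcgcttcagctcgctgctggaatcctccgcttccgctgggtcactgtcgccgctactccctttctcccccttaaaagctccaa
Prph: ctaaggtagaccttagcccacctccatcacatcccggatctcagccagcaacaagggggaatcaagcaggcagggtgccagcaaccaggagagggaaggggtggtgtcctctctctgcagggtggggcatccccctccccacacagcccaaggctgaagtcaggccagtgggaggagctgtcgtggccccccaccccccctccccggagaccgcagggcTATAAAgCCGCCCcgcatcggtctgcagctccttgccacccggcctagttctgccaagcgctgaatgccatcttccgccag

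The Ina window is chr19:47014431-47014730, that of Vim is chr2:13574061-13574360, that of Nes is chr3:87970843-87971142 and that of Prph is chr15:99054924-99055223. Of the 300 bases, ATAC peaks covered 277 at Ina, 229 at Vim, 189 at Nes and 0 at Prph. H3K27ac covered all 300 bases at Ina and at Vim, and 0 at Nes and at Prph. Over the 21263 promoter windows of the RefSeq table, 54.5% overlapped an ATAC peak and 45.4% an H3K27ac peak. Counting the start base as 0, TATAAA lay at -32 to -27 in Vim and at -31 to -26 in Prph, a motif that 12.6% of all windows hold on one strand or the other. Vim had CCAAT boxes at -196 to -192 and -94 to -90, against 38.2% of all windows with at least 1. The GC box, held by 46.2% of all windows, lay at -111 to -106 and -12 to -7 in Ina, at -73 to -68 and -62 to -57 in Nes and at -24 to -19 in Prph. CAGCTG lay at -135 to -130 in Ina, and 15.6% of all windows hold it. None of the 4 windows held the Runx motif TGTGGT (15% of all windows), CATCTG (14.6%), TAATTA (4.53%), TGACGTCA (2.23%), TGAGTCA (4.66%), CCGGAAG (11.6%) or TTCAGCACC, the left part of the element bound by the neuronal gene repressor REST (0.414%). These are matches of letters in a window of 300 bases on both strands, not sites of binding.

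Of the 4 promoters, the one without a peak was also the poorest in CpG for its base composition. The ratio of observed to expected CpG was 0.876 at Ina with 32 CpG, 0.702 at Nes with 18, 0.421 at Vim with 11 and 0.324 at Prph with 10. The share of all windows at or below the value, which ranks this same ratio, was 80.4% at Ina, 61.1% at Nes, 40.7% at Vim and 33.9% at Prph. The median ratio was 0.793 over the 11595 windows with an ATAC peak (quartiles 0.64 and 0.928) and 0.211 over the 9668 windows without one (quartiles 0.109 and 0.362). Vim thus carried ATAC with a ratio below the lower quartile of the windows with ATAC, and Prph lacked ATAC with a ratio between the median and the upper quartile of those without. G+C content followed another order, with 71.7% at Ina, 64.7% at Prph, 59.3% at Vim and 58.7% at Nes, against a median of 56.3% over all windows.

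**Figure D1:**
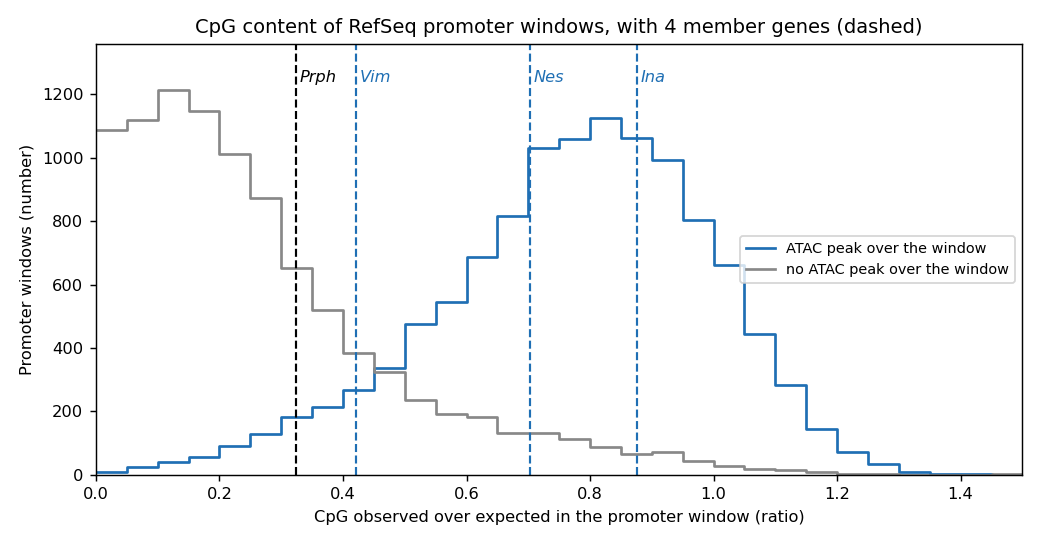
Number of RefSeq promoter windows (y axis) by the ratio of observed to expected CpG (x axis), for windows with an ATAC peak (blue line) and without one (grey line). Dashed lines mark the ratio of Prph (0.324, no ATAC), Vim (0.421), Nes (0.702) and Ina (0.876).

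Of the 7 genes, 6 carried both marks at an annotated end, and the exception was Prph, the peripherin gene. An ATAC peak lay within 1 kb of an end at 6 of 7 filament genes, against 60.4% of all protein-coding genes. An H3K27ac peak lay there at the same 6 of 7, against 49.3% of all genes. Both marks were found within 1 kb of an end, overlapping or not, at 6 of 7, against 47.8% of all genes. The list was chosen with earlier results of these data known, so the counts are a description of these genes. In a count added after the data were seen, peaks that also lie within 1 kb of an end of another protein-coding gene were left out: Nefh and Ina then dropped from both counts, and 4 of 7 genes were left in each.

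The neurofilament genes Nefl and Nefm showed the same arrangement in mirror image, each with a broad block of acetylation over 1 end and reaching into the gene. Nefl lies at chr14:68083863-68089095 (5233 bp) and Nefm at chr14:68119545-68125004 (5460 bp). At the lower end of Nefl, an H3K27ac peak of 4444 bp (chr14:68083000-68087443) held 3 ATAC peaks, of 493 bp over the end itself, of 180 bp and of 186 bp. At the upper end of Nefm, an H3K27ac peak of 4503 bp (chr14:68121130-68125632) held 2 ATAC peaks, of 691 bp over the end and of 236 bp inside the gene. The 691-bp peak was wider than or as wide as 96.11% of all ATAC peaks, although the noncoding gene A230070E04Rik overlaps this end and its share in the peaks cannot be told apart from that of Nefm. H3K27ac covered 68.4% of the Nefl span and 71% of the Nefm span.

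Measured over the gene and 1 kb on either side, H3K27ac covered 61.4% at Nefl and 60.4% at Nefm, each at or above the value of 99.4% of all genes, whose median was 0.923%. By acetylated length, not share, Nefl was at or above 96.7% of all genes and Nefm 96.8%. The acetylated ends were the outer ends of the pair. The 30.4 kb between the genes held 0 ATAC and 0 H3K27ac peaks, and the remaining 8 ATAC and 12 H3K27ac peaks of the locus lay outside the pair.

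**Figure D2:**
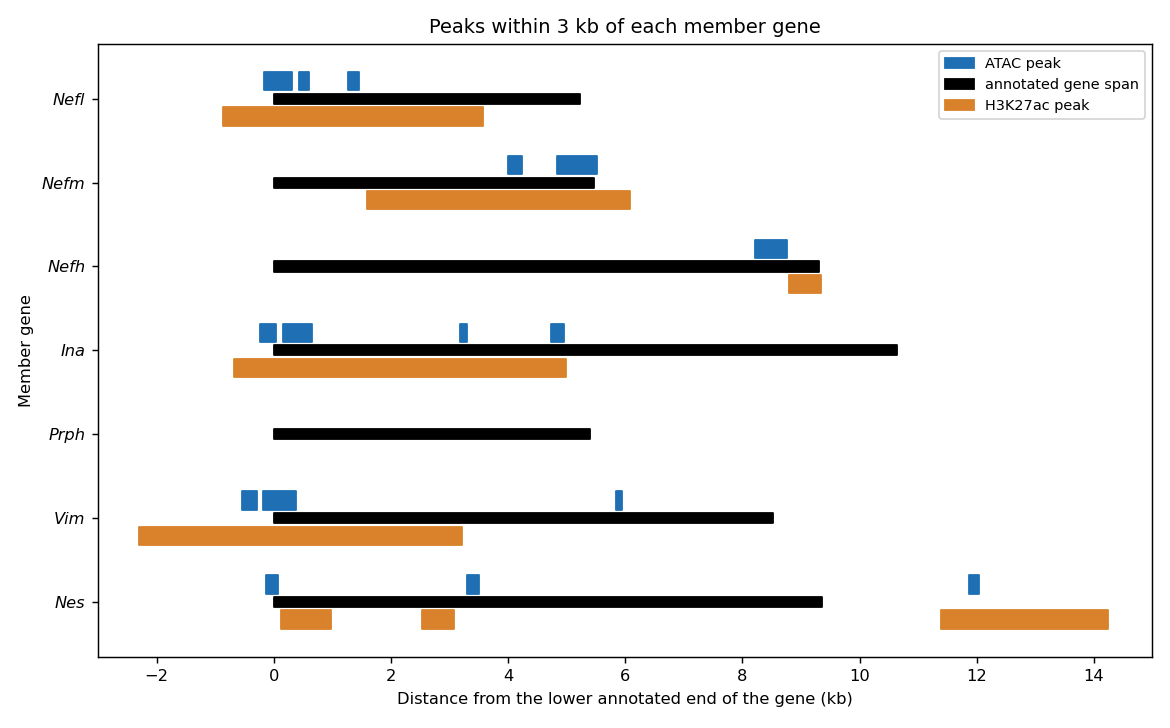
ATAC peaks (blue) and H3K27ac peaks (orange) around each filament gene (black), by distance in kb from the lower annotated end. Peaks of the loci within 3 kb of a gene are drawn to scale, and peaks beyond a locus limit are not drawn. Broad acetylation lies over 1 end of Nefl, Nefm, Ina and Vim, narrower peaks lie at Nefh and Nes, and Prph has none.

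The heavy subunit gene Nefh, which in rodents is switched on later than the other neurofilament genes, had a much smaller acetylated stretch. Nefh lies at chr11:4938754-4948064 (9311 bp), and its only H3K27ac peak was 544 bp wide (chr11:4947550-4948093), over the upper end. An ATAC peak of 542 bp (chr11:4946969-4947510) lay inside the gene, 554 bp from that end, and 39 bp separated the 2 peaks. H3K27ac covered 5.53% of the Nefh span, against 68.4% at Nefl and 71% at Nefm. With the kb on either side the share was 4.81%, at or above that of 72.6% of all genes. By acetylated length, 544 bp, Nefh was at or above 50.1% of all genes. Both peaks lie within 1 kb of an annotated end of Ap1b1, a subunit gene of a clathrin adaptor whose span overlaps that of Nefh. That end, at position 4947320, lies within the ATAC peak itself. The start of transcription that the promoter table gives for Ap1b1 lies at position 4986824, with 1 ATAC and 1 H3K27ac peak of its own within 1 kb. Whether the pair at the Nefh end belongs to Nefh or to a transcript of Ap1b1 was not tested.

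At Ina, which encodes alpha-internexin, a single broad block of acetylation covered the start and much of the gene body, with open chromatin at intervals along it. Ina lies at chr19:47014681-47025327 (10647 bp). The H3K27ac peak of 5666 bp, rank 140 of 19924 by width, ran from -677 to 4988 bp of the start. It held all 4 ATAC peaks of the locus. Those at the start were 277 bp wide, from -234 to 42 bp, and 503 bp wide, from 156 to 658 bp, and those inside the gene were 114 bp and 217 bp wide, at 3180 and 4735 bp from the start. H3K27ac covered 46.9% of the span, and 44.8% with 1 kb on either side, at or above the share of 98.6% of all genes. By acetylated length Ina was at or above 97.8% of all genes. An annotated start of Nt5c2, a nucleotidase gene on the minus strand, lies at position 47015174, inside Ina, and the peaks at this end cannot be told apart between the genes. Of the other 6 Nt5c2 starts, the 4 between positions 46961882 and 46962563 had 1 ATAC and 1 H3K27ac peak within 1 kb, and 2 had neither.

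Prph, the gene of peripherin, stood apart from the neurofilament genes: no peak of either list lay in its span (chr15:99053579-99058978, 5400 bp) or within 1 kb of it. By the same count, 44.5% of all genes had no H3K27ac. Counted at the ends alone, 8336 of 21887 genes had a peak of neither list. The nearest ATAC peak below the span was 23239 bp away and the nearest above was 15640 bp away. The nearest H3K27ac peak below, 403 bp wide and without ATAC, was 8315 bp away, and the nearest above was 15201 bp away. The peaks above, an ATAC peak of 406 bp within an H3K27ac peak of 1191 bp, lie at the end of Troap, the next protein-coding gene. The locus of 36.9 kb held no further peak. Beyond the gene below, outside the locus and picked out after its values were seen, the stretch between the tubulin genes Tuba1a and Tuba1c held 6 ATAC peaks and H3K27ac peaks of 3896, 603, 5004 and 3786 bp, besides an H3K27ac peak of 4827 bp over the end of Tuba1a. The nearest ATAC peak of this stretch lay 59.4 kb from Prph and the nearest H3K27ac peak 59.7 kb.

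Vim and Nes, the progenitor-type subunit genes, both carried open chromatin at the annotated start, but their acetylation differed in extent. Vim lies at chr2:13574311-13582826 (8516 bp), with an H3K27ac peak of 5509 bp from -2300 to 3208 bp of the start, rank 168 of 19924 by width. It held ATAC peaks of 254 bp, from -539 to -286 bp, and of 555 bp, from -179 to 375 bp. The third ATAC peak, of 114 bp and 5836 bp into the gene, was 2627 bp from the nearest H3K27ac. H3K27ac covered 37.7% of the Vim span and 40% with 1 kb on either side, at or above the share of 98.2% of all genes. By acetylated length Vim was at or above 96.3% of all genes.

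Nes lies at chr3:87971093-87980451 (9359 bp), and no ATAC peak at its start or inside it overlapped an H3K27ac peak. The ATAC peak at the start was 208 bp wide, from -139 to 68 bp, followed after 59 bp by an H3K27ac peak of 848 bp, from 128 to 975 bp. Farther in, an H3K27ac peak of 560 bp, from 2526 to 3085 bp, was followed after 212 bp by an ATAC peak of 208 bp, from 3298 to 3505 bp. H3K27ac covered 15% of the Nes span, and 12.4% with 1 kb on either side, at or above the share of 88.3% of all genes. By acetylated length, 1408 bp, Nes was at or above 71.7% of all genes. Broader acetylation stood outside the gene: an H3K27ac peak of 2856 bp, 2027 bp above the upper end, held an ATAC peak of 173 bp. A pair of an H3K27ac peak of 906 bp and an ATAC peak of 535 bp stood 10161 and 9952 bp below the lower end. Both peaks of that pair overlap the noncoding gene Gm32518. The last pair of the locus, of 355 and 473 bp, lies at the end of Bcan, the gene of the proteoglycan brevican.

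Because Vim and Nes are also genes of other cells that a DRG preparation could hold, the markers of those cells were counted in the same way. Of 6 markers of glia and neural crest, 3 had ATAC and 5 had H3K27ac at an end, with both at Erbb3, Fabp7 and Sox2, H3K27ac alone at Foxd3 and Sox10 and neither at S100b. That H3K27ac share was 83.3%, beside 80% of the sensory neuron markers, but the ATAC share was 50%, beside 90%. The median acetylated length in a gene and its outer kb was 1365 bp, beside 6275 bp over the sensory neuron markers. Among all protein-coding genes, 60.4% had ATAC and 49.3% had H3K27ac at an end. Of 6 spinal progenitor markers, 5 had ATAC and 2, Hes5 and Nkx6-1, also H3K27ac, and Pax6 had neither. Of 7 mesenchyme markers, 2 had ATAC and 1, Twist1, also H3K27ac. Of 5 endothelial markers, Cldn5 and Kdr had ATAC and 0 had H3K27ac, and of 5 macrophage and blood markers Spi1 had ATAC and 0 had H3K27ac. Their part in the peaks at Vim and Nes was not tested, and in a list of positions a mark in some of the cells cannot be told apart from a mark in all of them.

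**Figure D3:**
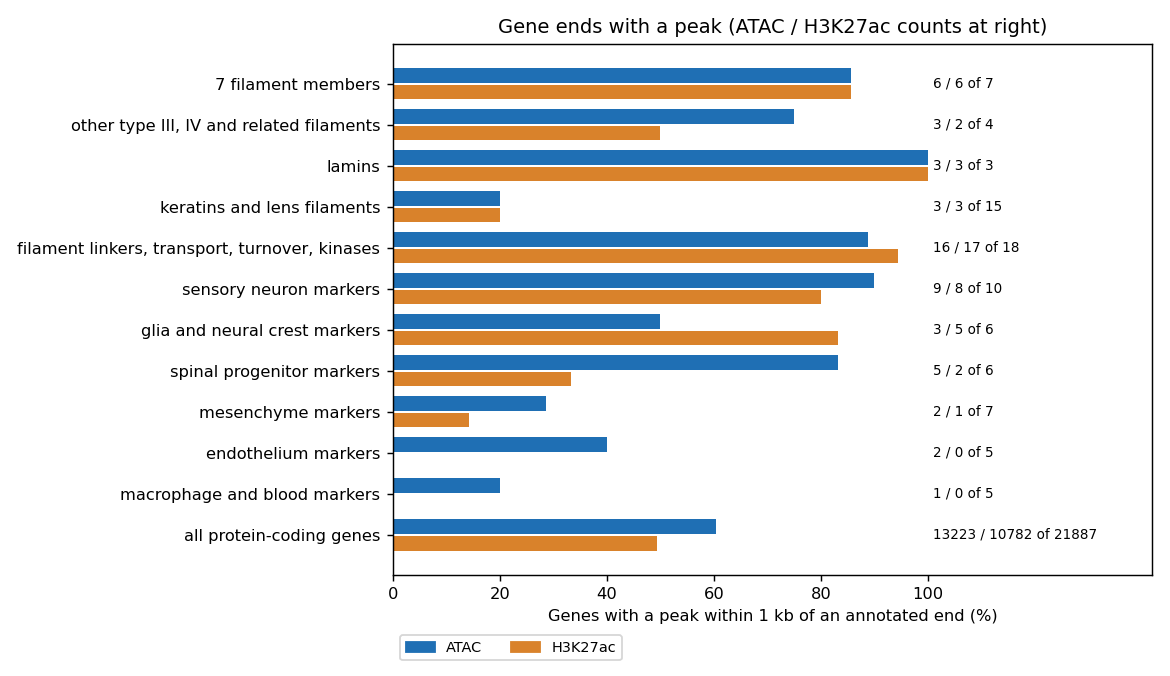
Percentage of genes with an ATAC peak (blue) or an H3K27ac peak (orange) within 1 kb of an annotated end (x axis), by gene list (rows), with the counts at right. The 7 filament genes had 6 and 6, against 13223 and 10782 of all 21887 protein-coding genes.

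The acetylated peaks at the ends of the filament genes were of 2 kinds, broad at Nefl, Nefm, Ina and Vim and narrow at Nefh and Nes. The 6 H3K27ac peaks at the ends were 544 bp wide at Nefh, 848 bp at Nes, 4444 bp at Nefl, 4503 bp at Nefm, 5509 bp at Vim and 5666 bp at Ina, with a median of 4474 bp. The median over the 9523 H3K27ac peaks at the ends of all genes was 1248 bp, with quartiles of 805 and 1796 bp. Peaks of at least 4444 bp, a limit taken from the Nefl peak itself, numbered 308, or 1.55% of the list. That share is over H3K27ac peaks at any position, not over those at gene ends. No width lay between 848 and 4444 bp. The ATAC peaks at the ends had a median width of 493 bp over 9 peaks, against 365 bp over the 15112 ATAC peaks at the ends of all genes. Over the whole loci, the H3K27ac peaks had a median width of 1632 bp and the ATAC peaks of 217 bp, against 1036 and 217 bp over the whole lists.

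**Figure D4:**
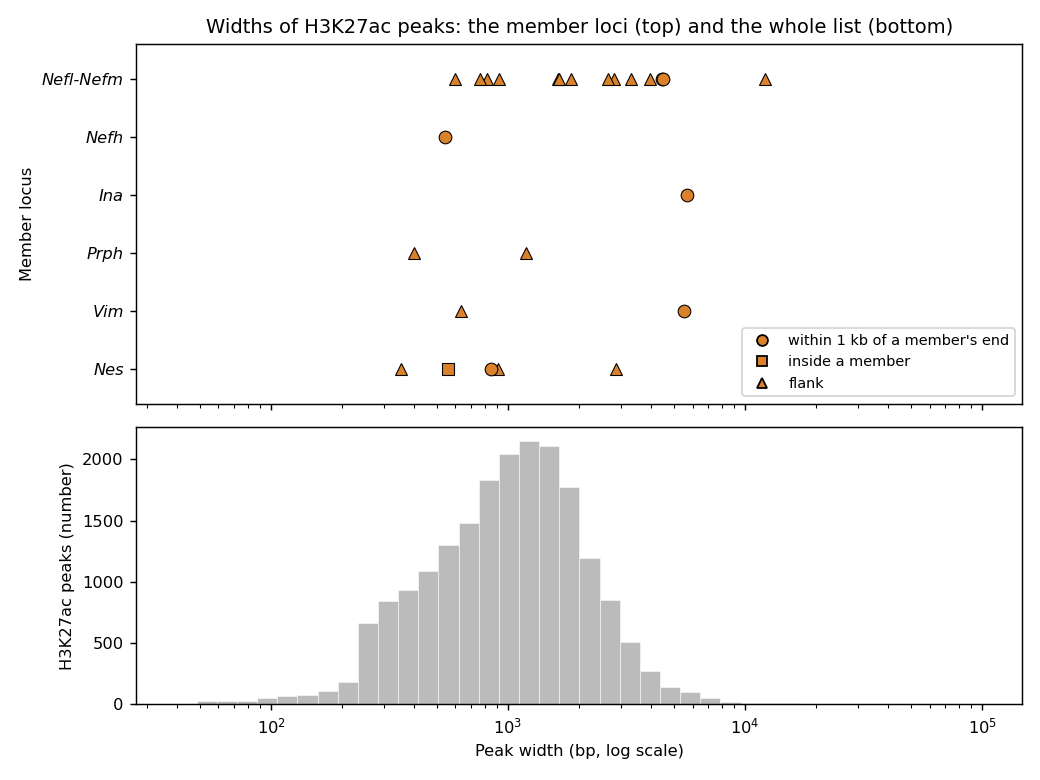
Width of each H3K27ac peak in bp on a log axis: top, the 25 peaks of the filament loci by locus (circles at a gene end, square inside a gene, triangles in a flank); bottom, the number of H3K27ac peaks of the whole list by width. The peaks at the ends of Nefl, Nefm, Ina and Vim are 4444 to 5666 bp wide, and the widest flank peak is 12076 bp.

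The Nefl-Nefm locus held most of the flank peaks. It spans chr14:67983863-68225004 (241.1 kb), since the nearest protein-coding genes, Dock5 at 150290 bp below and Adam7 at 372331 bp above, lie beyond the limit of 100 kb. The locus held 13 ATAC and 14 H3K27ac peaks, of which 11 ATAC peaks overlapped H3K27ac and 7 H3K27ac peaks overlapped ATAC. It held 5 ATAC and 2 H3K27ac peaks where flanks ended at the next gene of any kind, 9 and 7 with flanks of at most 50 kb, and 5 and 10 in the wider 50% of each list. H3K27ac covered 41924 bp, or 17.4% of the locus. Among the 3184 single-gene loci of at least 200 kb, the medians were 4 ATAC peaks, 1 H3K27ac peak and 1296 bp of H3K27ac, and 195, 36 and 3 of them reached the Nefl-Nefm values. This locus is a pair of genes, and the loci it was set beside hold 1 gene each.

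Below Nefl, 7 H3K27ac peaks covered 11729 bp. The nearest, 4769 bp from Nefl, was 2800 bp wide (chr14:68076295-68079094) and held no ATAC peak. The widest of them, 3292 bp (chr14:68038143-68041434), was 42429 bp away and held an ATAC peak of 223 bp. A peak of 759 bp, 32193 bp away, held an ATAC peak of 114 bp and overlapped in part another of 158 bp, and the other 4, of 596 to 1838 bp, overlapped none. The 2 further ATAC peaks on this side, of 107 and 118 bp, overlapped no H3K27ac. Part of this flank is annotated with the noncoding genes Gm31107 and Gm52127.

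Above Nefm, 5 H3K27ac peaks covered 21248 bp. The widest, chr14:68188084-68200159, was 12076 bp wide, rank 16 of 19924, and began 63080 bp from Nefm. It held a single ATAC peak of 299 bp. With its neighbours of 2629 and 3983 bp it formed a cluster of 24.2 kb in which 18688 bp were acetylated and 2 ATAC peaks stood. The other peaks, of 912 bp with an ATAC peak of 141 bp and of 1648 bp without one, lay 57111 and 37512 bp from Nefm. No protein-coding gene lies in this cluster, and the lists do not tie it to any gene.

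**Figure D5:**
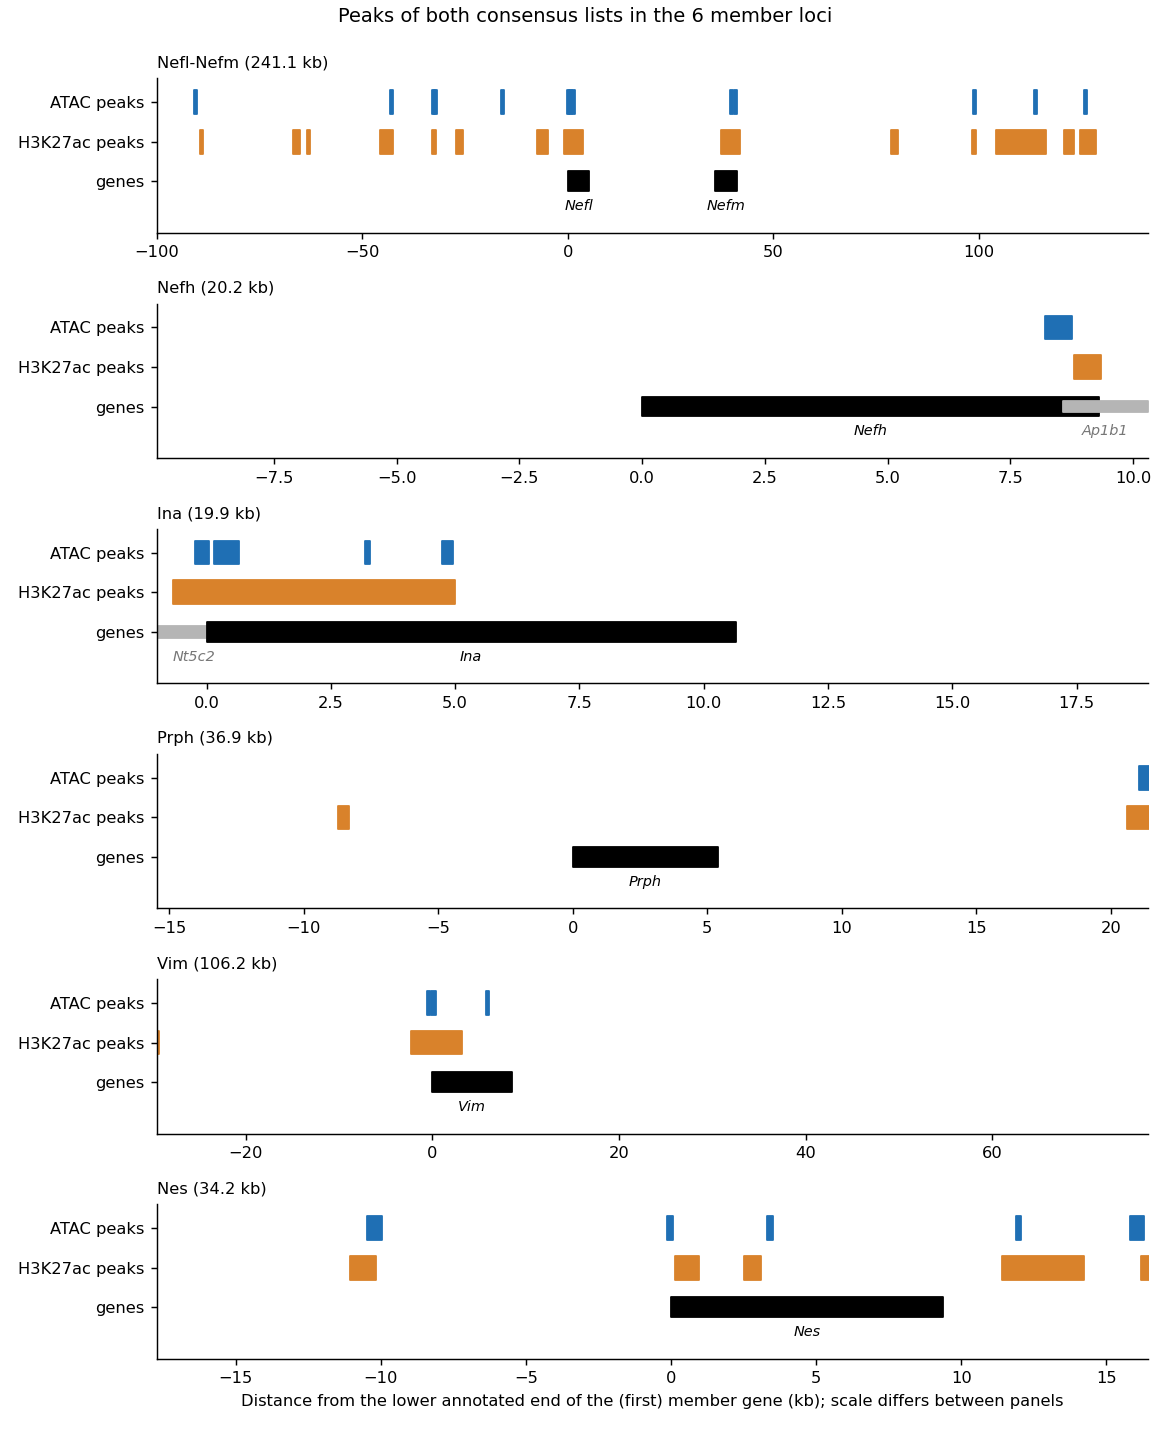
ATAC peaks (blue), H3K27ac peaks (orange) and protein-coding genes (black for the filament genes, grey for others) in the 6 loci, by distance in kb from the lower end of the filament gene; each panel has its own scale and very narrow peaks are drawn at a minimum width. The Nefl-Nefm locus has acetylated regions on both outer sides and none between the genes, and the Prph locus has peaks only in its outer parts.

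The other loci were shorter, because their neighbours are near. The Nes locus (34.2 kb, between Crabp2 and Bcan) held 5 ATAC and 5 H3K27ac peaks, which is 14.6 per 100 kb for each list and at or above 92.8% of all loci for ATAC and 96.9% for H3K27ac. The Ina locus (19.9 kb, between Nt5c2 and Pcgf6) held 20.1 ATAC and 5.02 H3K27ac peaks per 100 kb, at or above 96.2% and 84.5% of all loci. The Nefl-Nefm locus held 5.39 and 5.81 per 100 kb, the Nefh locus (20.2 kb, between Thoc5 and Ap1b1) 4.95 and 4.95, the Prph locus 2.71 and 5.42, and the Vim locus (106.2 kb, between Trdmt1 and St8sia6) 2.82 and 1.88. The medians over all loci were 2.85 ATAC and 0.992 H3K27ac peaks per 100 kb. Of the Vim locus's 2 H3K27ac peaks, that of 634 bp lies at the end of Trdmt1.

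The share of a locus under H3K27ac gave another order: 28.4% at Ina, 17.4% at Nefl-Nefm, 15.8% at Nes, 5.42% at Vim, 3.25% at Prph and 2.69% at Nefh, against a median of 0.85% over all loci. In a short locus a single promoter block weighs more, as at Ina, where the covered 5666 bp are 1 peak. At Prph the covered 1197 bp lie entirely in the flanks.

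Open regions of the filament loci overlapped acetylation in 21 of 27 cases (77.8%, Wilson 95% interval 59.2 to 89.4), against 39.6% of all ATAC peaks. At the gene ends the share was 7 of 9 (77.8%, 45.3 to 93.7), against 72.8% of the ATAC peaks at all gene ends. Inside the genes it was 4 of 6 (66.7%, 30 to 90.3), against 26.6% of all ATAC peaks inside genes. Those 4, in Nefl, Nefm and Ina, lie under the broad H3K27ac peaks that also cover an end of these genes. In the flanks the share was 10 of 12 (83.3%, 55.2 to 95.3), against 16.6% of all ATAC peaks between genes and 72.8% of those at gene ends, as 2 of the 12 lie at the ends of Troap and Bcan. The intervals cover counting only, and peaks of 1 locus share that locus and are not replicates. Read the other way, 14 of 25 H3K27ac peaks overlapped an ATAC peak (56%, 37.1 to 73.3), against 68.9% of all H3K27ac peaks. At the gene ends 4 of 6 did (66.7%, 30 to 90.3), against 95.2% of the H3K27ac peaks at all gene ends, the exceptions being Nefh and Nes. In the flanks 10 of 18 did (55.6%, 33.7 to 75.4), against 44.1% of the H3K27ac peaks between genes and 95.2% of those at gene ends. The 10 include the flank peaks at the ends of Troap, Trdmt1 and Bcan. The 1 H3K27ac peak inside a gene, in Nes, did not overlap ATAC, against 45.3% of all those inside genes.

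The 6 ATAC peaks without H3K27ac differed in how near the mark was. At Nefh and at both Nes peaks, acetylation lay 39, 59 and 212 bp away, within 250 bp, a limit set after these gaps were seen. The other 3, inside Vim and below Nefl, were 876 to 8257 bp from it. Over all chromosomes, 4.39% of the 26372 ATAC peaks without H3K27ac had it within 250 bp, and 9.76% of the 4109 at gene ends.

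The relatives and partners of these genes differed by class. Of the other filament genes of the same and related types, synemin (Synm) and syncoilin (Sync) had both marks at an end, desmin (Des), the muscle subunit, had ATAC alone, and Gfap, the astrocyte subunit, had neither. The nuclear lamin genes Lmna, Lmnb1 and Lmnb2 had both. Of 15 keratin and lens filament genes, 3 had both, Bfsp1, Krt1 and Krt10, and 12 had neither, among them Bfsp2, Krt13, Krt14 and Krt15. Of 18 genes for linkers, transport, turnover and kinases of filaments, 16 had ATAC and 17 had H3K27ac at an end. The shares over all protein-coding genes were 60.4% and 49.3%. Those of the list with both include Cdk5, a kinase that phosphorylates neurofilaments, its activator Cdk5r1, the cytolinker Dst and the dynein heavy chain Dync1h1. Myo5a, a myosin motor, had H3K27ac alone, and Trim2, a ubiquitin ligase that acts on the light neurofilament subunit, had neither at an end, but its body carried 14 ATAC and 9 H3K27ac peaks. The acetylated length in a gene and its outer kb had a median of 4209 bp over the 7 filament genes, against 539 bp over all genes. The median was 513 bp over the 4 other filament genes of the same and related types, near that of all genes. It was 2941 bp over the lamins, 2562 bp over the partners, 0 bp over the keratins and lens genes and 6275 bp over the sensory neuron markers.

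Likeness of the whole pattern was measured as the Euclidean distance over 7 values per gene, on a log2(x + 1) scale: the counts of ATAC and H3K27ac peaks at the ends, inside and in the flanks, and the kb of H3K27ac in the gene and its outer kb. For Nefl the nearest of 21886 genes was Nefm (0.93), followed by Scd2 (0.96) and by Pou4f1 (0.97), which encodes a sensory neuron homeodomain factor. For Nefm the nearest were Dyrk3 (0.59), Scd2 (0.67) and Cep120 (0.79), for Ina Cdk2ap1 (0.29), Nrep (0.3) and Fgf11 (0.53), for Vim Fat4 (0.56), Stat3 (0.73) and Stag2 (0.83), and for Nes Lrrc8b (0.08), Mgmt (0.42) and Per2 (0.51). Prph had the same 7 values as 21 other genes, among them Actl9, Aqp9 and Bex6, and Nefh the same as 4930430F08Rik and Tspyl3. Between the filament genes themselves the smallest distance was that of Nefl and Nefm and the largest 4.51, between Nefl and Nefh. For this measure Nefl and Nefm each had flanks of their own, which share only the stretch between the genes. The values are few and whole for most genes, and the distance describes these lists only.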

How the data were processed

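ATAC-seq and H3K27ac ChIP-seq peaks were analysed as the authors deposited them: start and end positions of 1 consensus list per assay over 2 replicates, with no signal, score or p-value. Per the submitters' processing notes, cutadapt 1.18, Bowtie2 2.3.5.1, MACS2 and bedtools were used with build mm10. Thresholds and the rule of consensus are not given in the sources used here, so a peak that is missing may only have missed a threshold. Input DNA is not used here.

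The peaks used lay on chromosomes 1 to 19, X and Y, 43652 of 43739 ATAC and 19924 of 19928 H3K27ac, with positions counted from 1. Genes were RefSeq spans on GRCm38, without strand or exons, and the promoter table matched 4 of the 7 genes. Lower and upper ends are those with the lower and higher coordinate. Peaks needed 1 shared bp to overlap. Loci of all 21887 genes were built by the same rule, and no test was made. The 7 genes and all lists were chosen with earlier results of these data known. Some markers of glia and neural crest are not reported here, and the counts of that list leave them out. The genes named besides them are the neighbours bounding each locus, list members with both marks or neither where 5 or fewer, up to 4 others in alphabetical order, and the 3 nearest by pattern. Alternatives were end windows of 0.5 and 2.5 kb, annotated starts only, a peak anywhere in the gene, a flank limit of 50 kb, flanks to genes of any kind, midpoints, 50% coverage, the wider 50% of each list and peaks at other genes' ends left out. Counting was tested on simulated intervals. Python 3.11.15, numpy 2.4.6, pandas 2.3.3 and scipy 1.17.1 were used.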

Additional observations from a re-analysis of the deposited data

How the results depend on the processing

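The loci held 27 ATAC and 25 H3K27ac peaks. They held 17 and 9 where flanks ended at the next annotated gene of any kind, noncoding ones included, and 14 and 14 in the wider 50% of each list. Both settings keep shorter flanks or fewer peaks by construction. Counted at annotated starts alone, 3 of 4 genes had ATAC and 3 of 4 had H3K27ac, since Nefl, Nefm and Nefh had no start in the promoter table, against 6 of 7 at either end. The other settings gave 22 to 27 ATAC and 18 to 24 H3K27ac peaks. The genes with a mark at an end numbered 5 or 6 for ATAC and 4 or 6 for H3K27ac over the other planned settings, ATAC being lost at Nefh with a window of 0.5 kb and at Nes in the wider 50%, and H3K27ac at Nefh and Nes in the wider 50%. Prph had no mark in any of them. The share of ATAC peaks with H3K27ac was 70.4% to 78.6% under the planned settings, and 88.9% where H3K27ac within 250 bp also counted, which was chosen after seeing the data. Of 60 peak counts of single loci under alternatives, 40 stayed within 1.5 times and 20 did not.

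No paired analysis was possible because each list is a consensus of both replicates, and for the same reason no replicate was left out. The lists hold no depth, peak height or share of cells with a mark.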
